A study of Mus musculus with 22 samples.

Results

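Adamts1, Adamts4, Adamts5, Adamts9, Adamts12 and Adamts15, which encode secreted metalloproteases that cleave large proteoglycans, were followed in fibroblasts of mouse back skin under stretch. They are the 6 genes, of 55414 in the deposited count table, whose Ensembl identifiers carry these symbols, and each matched a single identifier. All mice were operated on through a cut near the tail. In the EXP arm an expander hydrogel, which stretches the overlying skin, was placed below the skin near the neck, and the CTRL arm was operated on in the same way without an expander. Skin was taken on day 1 (4 CTRL and 5 EXP libraries), day 2 (3 and 3) or day 4 (4 and 3), which made 22 libraries in 6 groups. The sort discarded cells positive for CD31, CD45, CD117 or EpCAM and retained live cells positive for CD34 and PDGFRα. Strain, sex and age are not given in the sources used here, and the labels number the libraries of a group without saying whether each came from a separate mouse, so p-values measure only the spread between these libraries. Unoperated skin was not analysed here, so every comparison is with operated skin of the same day.

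ADAMTS proteases are made as inactive precursors, are activated by proprotein convertases such as furin, and are held in the matrix by their thrombospondin-type repeats. The members described here can cut hyalectans, the hyaluronan-binding proteoglycans versican and aggrecan and their relatives. In skin, versican is the main hyalectan of the dermis and surrounds dermal fibroblasts during development and repair. TIMP3 is the tissue inhibitor best known for blocking these enzymes, and the receptor LRP1 clears several of them from the cell surface.

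Of the 6 genes, 3 had an entry in the RefSeq promoter table (build GRCm38.p6), which holds the 250 bases before and the 50 bases after a gene's start. Adamts1 and Adamts12 are printed because they contrast an abundant member, whose arms overlapped on every day, with the member whose EXP effect turned with time. They run 5′ to 3′ on the gene's own strand, with capitals for letters matching the motifs searched, and each occupies its own line. Adamts1 lies at chr16:85803064-85803363 on the minus strand and Adamts12 at chr15:11064523-11064822 on the plus strand.
Adamts1: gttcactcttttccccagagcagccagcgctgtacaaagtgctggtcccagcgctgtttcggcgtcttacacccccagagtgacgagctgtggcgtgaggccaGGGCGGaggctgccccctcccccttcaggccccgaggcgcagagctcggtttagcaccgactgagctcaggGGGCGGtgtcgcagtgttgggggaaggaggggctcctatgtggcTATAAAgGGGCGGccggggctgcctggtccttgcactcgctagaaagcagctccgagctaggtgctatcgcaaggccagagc
Adamts12: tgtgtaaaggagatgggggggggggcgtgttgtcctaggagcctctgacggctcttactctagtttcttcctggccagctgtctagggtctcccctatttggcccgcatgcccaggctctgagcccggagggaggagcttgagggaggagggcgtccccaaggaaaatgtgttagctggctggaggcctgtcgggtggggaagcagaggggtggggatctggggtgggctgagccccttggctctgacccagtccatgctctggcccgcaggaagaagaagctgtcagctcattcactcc

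Both strands were searched for the AP-1 site (TGANTCA), the cyclic AMP response element (TGACGTCA), the TEAD site (GGAATG), the GC box (GGGCGG), the TATA box (TATAAA) and, by name, the CArG box and the NF-kB site. The Adamts1 window held 3 GC boxes, whose first bases lay 147, 76 and 25 bases before the start, and 1 TATA box 32 bases before it, 1 base clear of the nearest GC box. The Adamts9 window, at chr6:92943485-92943784 on the minus strand, held 1 GC box 7 bases before the start. No searched motif occurred in the Adamts12 window. Among all 32851 promoters of the table, 35.7% held a GC box, 13.6% a TATA box, 14.7% a TEAD site, 7.81% an AP-1 site, 4.51% an NF-kB site, 1.79% a cyclic AMP response element and 1.63% a CArG box. GC content was 64.7% for Adamts1, 70% for Adamts9 and 62% for Adamts12, against a median of 52.7% over all promoters. Adamts4, Adamts5 and Adamts15 had no entry.

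Library totals ran from 21461294 to 30210204 counts, and 3 counts, taken as the smallest detectable level, corresponded to 0.0799 to 0.155 CPM (read counts relative to the library's TMM-scaled size, TMM being edgeR's scaling between libraries). Such floors cover counting error only. All 6 genes passed the filter on low counts, with lowest single-library counts of 30879 for Adamts1, 16413 for Adamts4, 928 for Adamts5, 179 for Adamts12, 152 for Adamts15 and 51 for Adamts9. Every library expressed the 7 fibroblast markers Pdgfra, Cd34, Col1a1, Col1a2, Dcn, Lum and Thy1, and their summed level was 53720 to 231300 CPM. This sum was lower in EXP without overlap on each day: 91740 to 118800 CPM against 143000 to 182300 in CTRL on day 1, 61150 to 127900 against 210700 to 231300 on day 2, and 53720 to 171300 against 171800 to 211100 on day 4. Most of this sum came from Col1a1 and Col1a2, which reached 108100 and 102700 CPM, against at most 1292 CPM for Pdgfra. The 2 positive markers of the sort moved in opposite directions in edgeR's test. Cd34 was called lower in EXP on days 1 (log2 fold change -1.76, adjusted p = 7.02e-04) and 2 (-2.06, adjusted p = 0.00375). Pdgfra was called higher on days 1 (0.84, adjusted p = 0.0159), 2 (1.71, adjusted p = 0.00128) and 4 (0.81, adjusted p = 0.0415). The part of these shifts in the results for the proteases was not tested. Summed markers of other cells were low in comparison: 0.0734 to 10.4 CPM for endothelium, 14.7 to 90.6 for pericytes and smooth muscle, 34.5 to 130.2 for haematopoietic cells, and 0 to 324.6 for adipocytes. Within groups, 191 genes moved together with Rnf10 (correlation above 0.9). The widest gap in their mean log2 CPM divided the libraries into a side of 7 and a side of 15. The side of 7 held day 1 CTRL replicates 1, 2 and 3, day 1 EXP replicates 1 and 2, and day 4 CTRL replicates 3 and 4. That mean also holds differences between groups. Effects within a side are given where a day had 2 or more libraries per arm there. Exons of Adamts9 overlap A730049H05Rik and Gm15737 over 1805 of its 15048 bases, on the opposite strand. Since it is not stated whether reads were counted by strand, these reads cannot be assigned to a strand.

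A pair of the 6 genes supplied nearly all of their summed level. Other ADAMTS genes are not part of this sum, among them Adamts2, at 709.9 ± 169.5 CPM in day 1 CTRL before division by length. Per kilobase of exon, Adamts1 stood at 386.2 ± 41.0 CPM (SD, n = 4) in day 1 CTRL, and Adamts1 and Adamts4 together made up 98.1% ± 0.555 (SD) of the summed per-kilobase level of the 6 genes there. That share was 98.7% ± 0.551 in day 2 CTRL and 98.5% ± 0.139 in day 4 CTRL. In EXP libraries it was 96.7% ± 1.65 on day 1, 96.1% ± 0.528 on day 2 and 91.0% ± 4.71 on day 4. The 2 arms did not overlap on days 2 and 4. Summed over the 6 genes, the per-kilobase level was 757.1 ± 69.5 CPM in day 4 CTRL and 563.1 ± 114.3 CPM in day 4 EXP, without overlap.

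**Figure D1:**
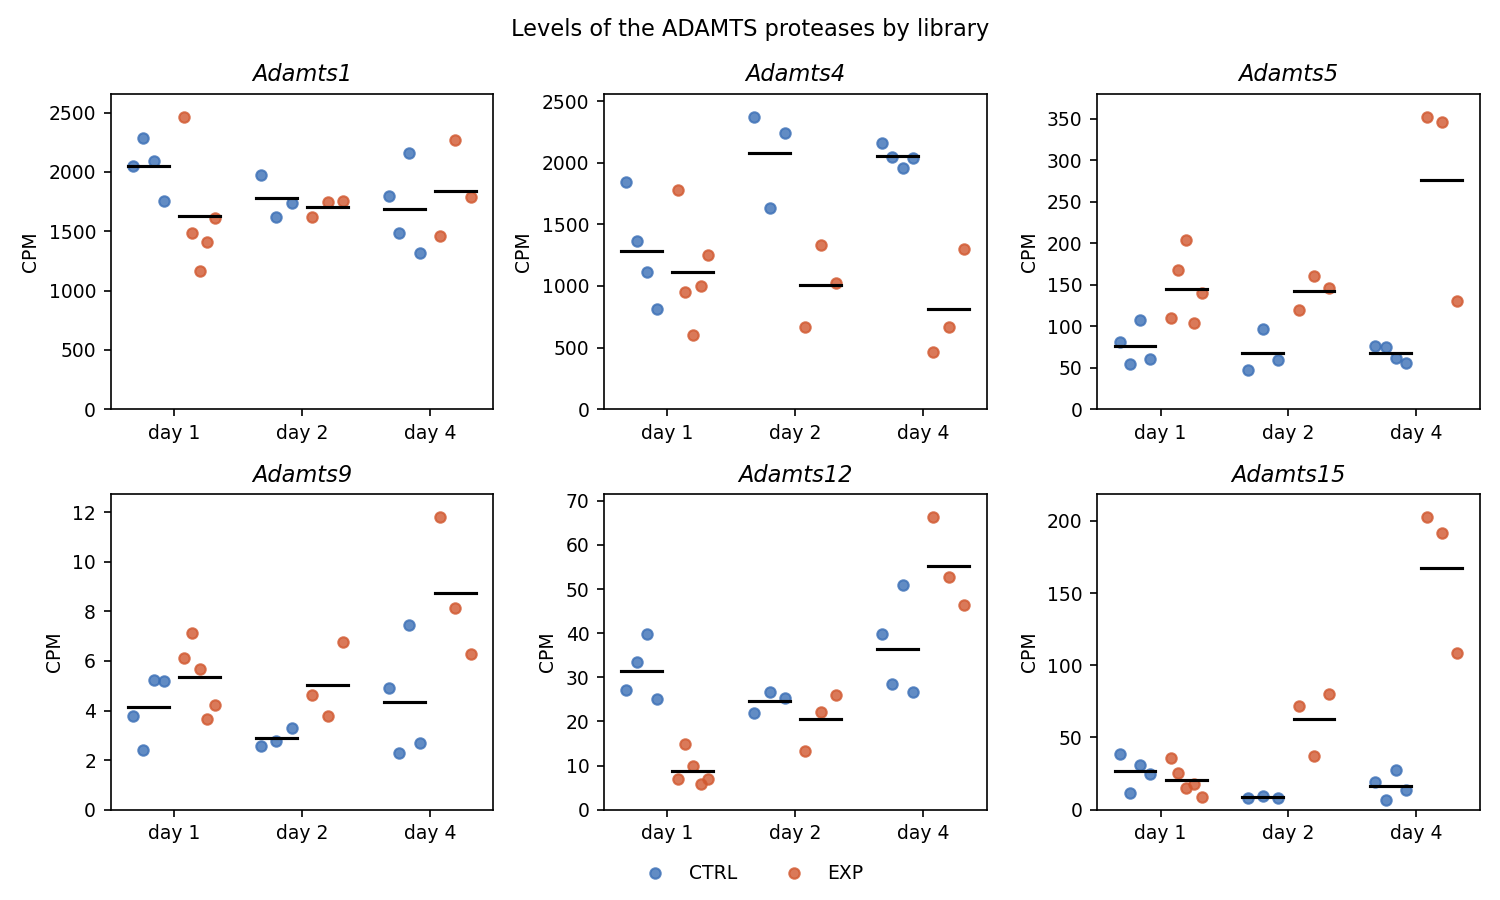
CPM (TMM-scaled, linear axes starting at 0) of the 6 proteases in each library, with 1 point per library, CTRL in blue and EXP in orange, and a black line at the group mean. Adamts1 overlaps between arms on every day, Adamts5 and Adamts15 are above all CTRL libraries in day 4 EXP, and Adamts12 is lowest in day 1 EXP and highest in day 4 EXP.

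Adamts1 encodes a protease of versican and aggrecan known for its role in ovulation and in vessels. It was the steadiest member. Its level was 2052, 2285, 2093 and 1759 CPM in day 1 CTRL and 2464, 1488, 1164, 1409 and 1613 CPM in day 1 EXP. It was 1971, 1622 and 1740 CPM in day 2 CTRL against 1619, 1744 and 1759 CPM in day 2 EXP. It was 1797, 1482, 2163 and 1313 CPM in day 4 CTRL against 1463, 2265 and 1792 CPM in day 4 EXP. The arms overlapped on all 3 days, and the EXP library with the highest day 1 value, replicate 1, exceeded every CTRL library. The log2 fold change of EXP over CTRL was -0.33 ± 0.195 (SE, adjusted p = 0.214 by edgeR's quasi-likelihood test) on day 1, -0.06 ± 0.238 (adjusted p = 0.905) on day 2 and 0.12 ± 0.222 (adjusted p = 0.726) on day 4. Without day 1 EXP replicate 1 the day 1 value was -0.53 with an adjusted p of 0.0304, and limma voom with quality weights gave -0.42 with an adjusted p of 0.0461, so that the day 1 result depended on 1 library and on the test.

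Adamts4 encodes an aggrecanase that also cuts versican. It was lower in day 4 EXP and at or near its highest in the CTRL libraries of days 2 and 4. Day 1 values were 1844, 1362, 1117 and 817.2 CPM in CTRL and 1779, 948.2, 601.8, 998.8 and 1248 CPM in EXP. Day 2 values were 2373, 1630 and 2242 CPM in CTRL and 668.4, 1335 and 1026 CPM in EXP. Day 4 values were 2165, 2051, 1957 and 2043 CPM in CTRL and 463.1, 667.2 and 1303 CPM in EXP. The arms overlapped on day 1, whereas all EXP libraries lay under all CTRL libraries on days 2 and 4. Adamts4 fell on day 4 by 1.34 ± 0.359 on the log2 scale (adjusted p = 0.0124), 2.53-fold. On day 2 the log2 fold change was -1.04 ± 0.373 and missed the threshold (adjusted p = 0.0677), and on day 1 it was -0.20 ± 0.303 (adjusted p = 0.652). The day 4 call was lost without EXP replicate 1 (adjusted p = 0.0673), without EXP replicate 2 (adjusted p = 0.0634) and in a fit of the day 4 libraries alone (adjusted p = 0.0516). The day 2 difference was called by DESeq2 (adjusted p = 0.0314), by voom (adjusted p = 0.00389) and in a fit of the day 2 libraries alone (adjusted p = 0.0196). A summed level of 7 immediate early genes, chosen after their values were seen, also differed between arms. It was 8241 to 11720 CPM in day 2 CTRL and 4928 to 5502 CPM in day 2 EXP, and 4922 to 9974 CPM in day 4 CTRL and 4103 to 4824 CPM in day 4 EXP. On day 1, when Adamts4 was not called, the sum was also lower in EXP, with overlap. It was then 7368 to 10890 CPM in CTRL (median 10100) and 4454 to 8350 CPM in EXP (median 5457). Its part in the Adamts4 result was not tested.

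Adamts5 encodes the other main aggrecanase, and its gene is the next protein-coding gene to Adamts1 on the chromosome in RefSeq, with 0 protein-coding genes between them. It was higher in EXP on each day. In day 1 CTRL it was at 81.5, 55.0, 107.7 and 60.1 CPM and in day 1 EXP at 110.3, 167.6, 204.2, 104.4 and 139.6 CPM. In day 2 CTRL it was at 46.9, 96.3 and 59.3 CPM and in day 2 EXP at 119.4, 160.6 and 146.6 CPM. In day 4 CTRL it was at 75.9, 74.9, 62.0 and 56.0 CPM and in day 4 EXP at 352.3, 346.4 and 129.9 CPM. Only on day 1 did the arms touch, where EXP replicate 4 lay under CTRL replicate 3. Day 4 EXP replicate 3 was far below the other 2 libraries of its group and still above every CTRL library. The log2 fold change was 0.93 ± 0.284 (adjusted p = 0.0176) on day 1, 1.07 ± 0.342 (adjusted p = 0.0409) on day 2 and 2.04 ± 0.319 (adjusted p = 3.72e-04) on day 4, or 1.91-fold, 2.11-fold and 4.11-fold. The day 4 call held without each library in turn. The day 1 call was lost without CTRL replicate 2 (adjusted p = 0.0632), CTRL replicate 4 (0.0563) or EXP replicate 3 (0.0535), and the day 2 call without CTRL replicate 1 (0.164), CTRL replicate 3 (0.126), EXP replicate 1 (0.077), EXP replicate 2 (0.0966) or EXP replicate 3 (0.0948) and with no filter on low counts (0.0792).

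**Figure D2:**
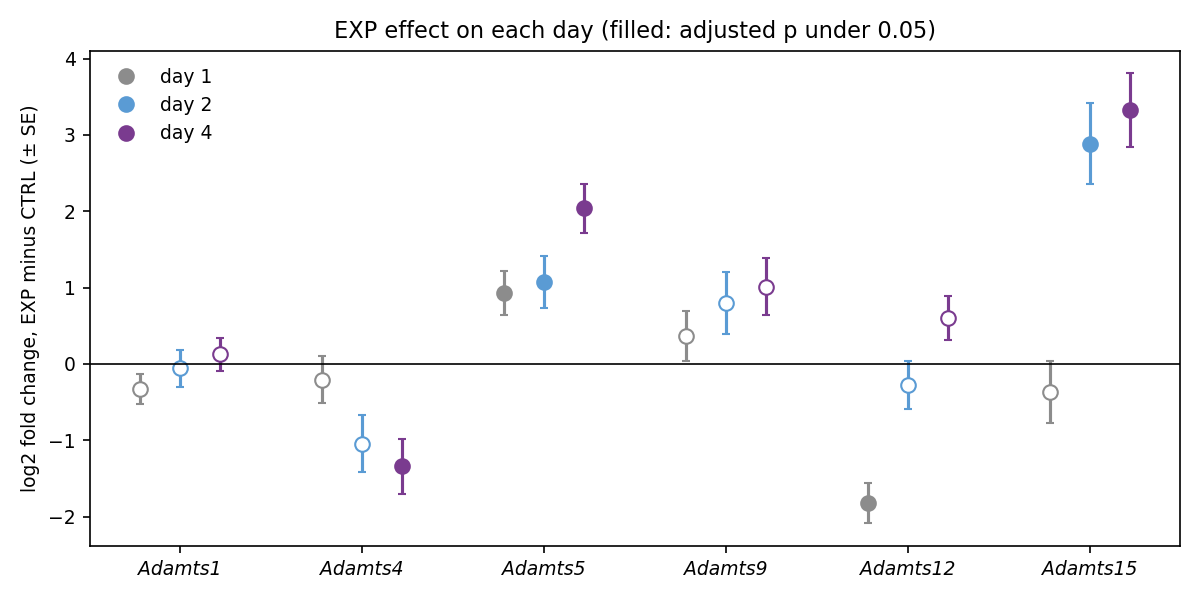
Log2 fold change of EXP over CTRL for each protease on days 1, 2 and 4, with bars of 1 SE and filled points where the adjusted p was under 0.05. Adamts5 is filled on all 3 days, Adamts15 on days 2 and 4, Adamts12 on day 1 and Adamts4 on day 4, while no point of Adamts1 or Adamts9 is filled.

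The log2 ratio of Adamts5 to Adamts4 counts within a library does not depend on how libraries were scaled. It is not corrected for length, so only its differences between libraries carry information. It was -4.07 ± 0.599 (SD, n = 4) in day 1 CTRL and -2.90 ± 0.921 (n = 5) in day 1 EXP, with overlap. It was -4.99 ± 0.818 (n = 3) in day 2 CTRL and -2.78 ± 0.285 (n = 3) in day 2 EXP. It was -4.95 ± 0.185 (n = 4) in day 4 CTRL and -1.56 ± 1.56 (n = 3) in day 4 EXP. On days 2 and 4 all EXP ratios were above all CTRL ratios. In day 4 EXP the ratio was -0.39 and -0.94 in replicates 1 and 2 and -3.33 in replicate 3. A ratio shows unequal change of the 2 genes and not which of them changed.

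**Figure D3:**
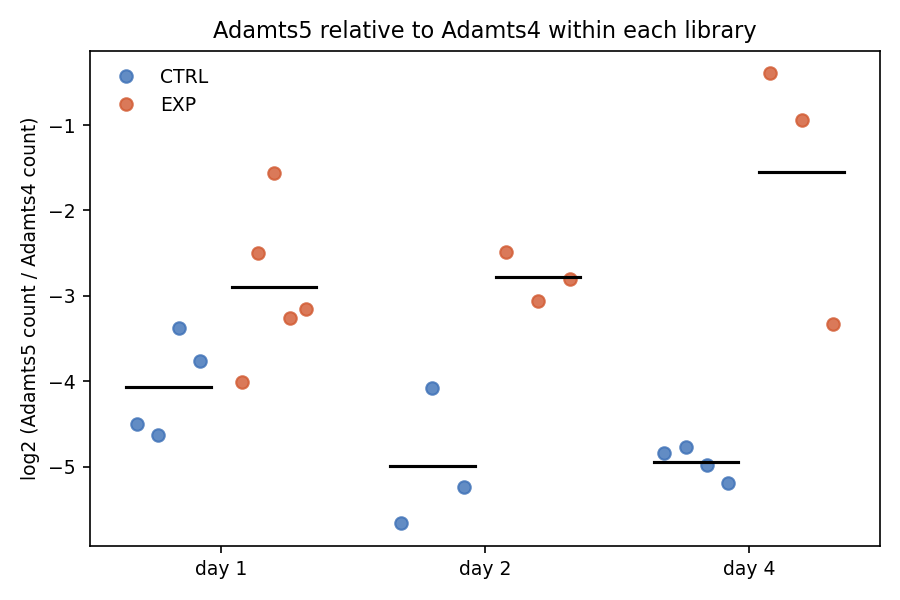
Log2 ratio of the Adamts5 count to the Adamts4 count in each library by day, CTRL in blue and EXP in orange, with a black line at the group mean. The arms overlap on day 1 and are apart on days 2 and 4, and day 4 EXP replicate 3 is the lowest point of its group at -3.33.

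Adamts9 encodes a protease of versican and aggrecan that is needed in embryonic development, and it was the scarcest of the 6 genes. Its level was 3.78, 2.40, 5.22 and 5.19 CPM in day 1 CTRL and 6.11, 7.12, 5.68, 3.67 and 4.21 CPM in day 1 EXP. It was 2.58, 2.79 and 3.31 CPM in day 2 CTRL and 4.63, 3.77 and 6.75 CPM in day 2 EXP. It was 4.93, 2.27, 7.46 and 2.68 CPM in day 4 CTRL and 11.8, 8.15 and 6.27 CPM in day 4 EXP. The arms did not overlap on day 2 and overlapped on days 1 and 4, where CTRL replicate 3 was above EXP replicate 3. The log2 fold change was 0.37 ± 0.330 (adjusted p = 0.433), 0.80 ± 0.406 (adjusted p = 0.203) and 1.01 ± 0.369 (adjusted p = 0.052) on days 1, 2 and 4. The day 4 difference was called without CTRL replicate 3 (adjusted p = 0.0152), without EXP replicate 3 (0.0301), by DESeq2 (0.0414), by voom (0.0387) and on library totals without TMM (0.0115), which also called day 2 (0.0351).

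Adamts12 encodes a protease with a long mucin-like region that is studied mainly in cartilage and in inflammation. Its EXP effect turned with time. On day 1 it was at 27.1, 33.5, 39.7 and 25.1 CPM in CTRL and at 6.90, 14.9, 9.79, 5.81 and 6.88 CPM in EXP. On day 2 it was at 22.02, 26.7 and 25.4 CPM in CTRL and at 13.3, 22.2 and 26.0 CPM in EXP. On day 4 it was at 39.9, 28.5, 50.8 and 26.7 CPM in CTRL and at 66.2, 52.8 and 46.4 CPM in EXP. Every EXP library was under every CTRL library on day 1, and the arms overlapped on days 2 and 4. Adamts12 fell on day 1 by 1.83 ± 0.261 on the log2 scale (adjusted p = 5.14e-05), 3.54-fold, and the call held without each library in turn. The log2 fold change was -0.27 ± 0.315 (adjusted p = 0.625) on day 2 and 0.60 ± 0.290 (adjusted p = 0.141) on day 4, the latter called on library totals without TMM (0.95, adjusted p = 0.0206). On day 1 the sum of 6 pericyte and smooth muscle markers was likewise lower. It was 14.7 to 42.3 CPM in EXP and 42.5 to 77.3 CPM in CTRL. That sum was also lower in EXP on day 2, when Adamts12 was not called. Kcnj8 and Abcc9 reached 41.7 and 42.1 CPM over all libraries, the others at most 8.02 CPM. EdgeR called only Abcc9 on day 1 (log2 fold change -1.73, adjusted p = 0.0117), and Notch3 ran the other way (0.16, adjusted p = 0.894). On day 1 the sum of adipocyte markers was lower too, at 0 to 0.376 CPM in EXP and 0.390 to 12.4 CPM in CTRL. The part of these shifts in the Adamts12 result was not tested. In these bulk samples, fewer cells of a type and less RNA per cell cannot be told apart.

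Adamts15 encodes a versican- and aggrecan-cleaving protease, and it showed the largest rise among the 6 genes. On day 1 it stood at 38.3, 11.8, 31.1 and 24.5 CPM in CTRL and at 35.6, 25.2, 14.96, 17.8 and 8.74 CPM in EXP. On day 2 it stood at 8.03, 9.34 and 8.18 CPM in CTRL and at 71.8, 37.2 and 80.2 CPM in EXP. On day 4 it stood at 19.0, 6.40, 27.7 and 13.7 CPM in CTRL and at 202.4, 191.7 and 108.2 CPM in EXP. The arms overlapped on day 1 and were apart on days 2 and 4, where the lowest EXP library of day 4 was above the highest CTRL library of any day. Adamts15 rose by a log2 fold change of 2.89 ± 0.535 (adjusted p = 0.00185), 7.40-fold, on day 2 and by 3.33 ± 0.483 (adjusted p = 2.71e-04), 10-fold, on day 4. On day 1 the log2 fold change was -0.37 ± 0.407 (adjusted p = 0.533). Both calls held without each library in turn.

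Counted over the family, EXP changed 2 of 6 genes on day 1, Adamts5 upward and Adamts12 downward. Over all 17554 genes tested, 13.6% were called higher and 14.9% lower on that day. On day 2, Adamts5 and Adamts15 rose and none fell, with 7.85% of all genes called higher and 5.62% lower. On day 4, Adamts5 and Adamts15 rose and Adamts4 fell, with 13.6% of all genes called higher and 8.96% lower. The median log2 fold change of the 6 genes was -0.27, 0.37 and 0.81 on days 1, 2 and 4, beside 0.01, 0.03 and 0.06 over all genes tested. With 6 genes, single calls set these counts, and they moved with the test and the libraries as given for each gene above.

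Whether the EXP effect itself differed between days was tested jointly over the 3 days. It did for Adamts12 (adjusted p = 0.0018) and Adamts15 (adjusted p = 0.00177), and 8.64% of all genes were called in this test. For Adamts12 the effect ran from -1.83 through -0.27 to 0.60 on the log2 scale, and for Adamts15 from -0.37 through 2.89 to 3.33. For the other members the joint test gave adjusted p = 0.167 (Adamts5), 0.211 (Adamts4), 0.542 (Adamts1) and 0.631 (Adamts9). Without day 4 EXP replicate 3, Adamts5 (adjusted p = 0.0232) and Adamts4 (adjusted p = 0.0397) were called as well.

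Change over days was also tested within each arm, where the day cannot be told apart from any processing done on that day. In EXP, Adamts12 rose from 8.85 ± 3.68 CPM (SD, n = 5) on day 1 to 20.5 ± 6.51 (n = 3) and 55.2 ± 10.1 CPM (n = 3) on days 2 and 4 (adjusted p = 2.53e-05 by edgeR's joint test). Adamts15 rose from 20.5 ± 10.3 CPM (n = 5) to 63.1 ± 22.8 (n = 3) and 167.4 ± 51.6 CPM (n = 3) in the same test (adjusted p = 5.00e-04), and 14.1% of all genes were called. Adamts5 was at 145.2 ± 41.5, 142.2 ± 20.99 and 276.2 ± 126.7 CPM and missed the threshold (adjusted p = 0.0545). It was called without day 1 EXP replicate 3 (adjusted p = 0.0399), without day 4 EXP replicate 3 (adjusted p = 0.00432) and by DESeq2 (adjusted p = 0.0284). In CTRL, 0 of the 6 genes were called by edgeR, DESeq2 or voom, and 0.302% of all genes were called by edgeR. Adamts15 had the lowest p of the 6 genes in edgeR's test (unadjusted 0.012, adjusted p = 0.226). Its CTRL means were 26.4 ± 11.3, 8.52 ± 0.719 and 16.7 ± 8.97 CPM on days 1, 2 and 4.

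Ordered by mean level over the 6 groups, most neighbours overlapped. Adamts1 ran from day 1 EXP (1628 ± 495.4 CPM) to day 1 CTRL (2047 ± 217.6 CPM), with every neighbouring pair overlapping. Adamts4 was lowest in day 4 EXP (811.1 ± 438.1 CPM), followed by day 2 EXP, day 1 EXP and day 1 CTRL, and the step from day 1 CTRL (1285 ± 434.0 CPM) to day 4 CTRL (2054 ± 85.4 CPM) had no overlap. For Adamts5 all CTRL groups came first, and the step from day 1 CTRL (76.1 ± 24.0 CPM) to day 2 EXP had no overlap. For Adamts9 too the 3 CTRL groups came below the 3 EXP groups, from 2.89 ± 0.376 CPM in day 2 CTRL to 8.74 ± 2.81 CPM in day 4 EXP, and every neighbouring pair overlapped. Adamts12 neighbours all overlapped between day 1 EXP at the bottom and day 4 EXP at the top. For Adamts15 only the step from day 2 EXP to day 4 EXP had no overlap.

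Values within a side of the library split were as follows. On day 1, among 3 CTRL and 2 EXP libraries of the same side, Adamts12 was still called lower (log2 fold change -1.58, adjusted p = 0.0236), while Adamts5 was 0.80 with an adjusted p of 0.119. On day 4, among 2 CTRL and 3 EXP libraries, the log2 fold changes of Adamts15 (3.70, adjusted p = 0.0998), Adamts5 (1.85, adjusted p = 0.163) and Adamts4 (-1.41, adjusted p = 0.207) kept their size and none was called. That comparison called 1 gene of all tested. Day 2 had libraries of a single side.

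Markers of other cells also differed between the arms on the days when Adamts5 and Adamts15 were called. On day 2 the summed level of 6 adipocyte markers was 0 to 2.24 CPM in CTRL and 2.83 to 69.3 CPM in EXP, that of 5 melanocyte markers 4.88 to 11.3 and 19.3 to 39.5 CPM, and that of 6 pericyte and smooth muscle markers 62.8 to 78.3 and 29.1 to 52.0 CPM. The melanocyte sum followed Mlana (up to 38.9 CPM), which edgeR did not call on day 2 (log2 fold change 1.33, adjusted p = 0.332). The other melanocyte markers did not exceed 1.67 CPM, and of these Tyrp1 was called lower in EXP (-7.02, adjusted p = 0.0118). On day 4 the adipocyte sum was 0.118 to 0.926 CPM in CTRL and 2.51, 119.7 and 324.6 CPM in EXP replicates 1, 2 and 3, in which Adamts15 was at 202.4, 191.7 and 108.2 CPM. The summed level of 6 endothelial markers was 0.399 to 3.14 CPM in day 4 CTRL and 3.50 to 10.4 CPM in day 4 EXP. That of 4 Schwann cell markers was 0.862 to 1.47 CPM and 2.26 to 3.86 CPM. Sums of 7 haematopoietic markers overlapped between arms on days 2 and 4. Among them edgeR called S100a8 (at most 5.45 CPM) higher in EXP on days 2 (log2 fold change 6.48, adjusted p = 0.0167) and 4 (6.21, adjusted p = 0.00891). Cd68 was called higher on day 2 (1.87, adjusted p = 0.0211), while Csf1r was lower without a call (-1.18, adjusted p = 0.0689). The part of RNA from any of these cells in the rises of Adamts5 and Adamts15 was not tested.

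Genes whose log2 CPM most resembled each member's over the 22 libraries were named by Pearson's r among 9816 candidates, as a description without a test, since libraries of a group share its condition. For Adamts15 these were Loxl3 (r = 0.924), Gys1 (0.919) and Dbn1 (0.914). For Adamts5 they were Steap1 (0.91), Glipr2 (0.897) and Zyx (0.895). For Adamts4 they were Sowahc (0.937) and Pfkfb4 (0.924), and for Adamts12 Asph (0.937), Maged2 (0.918) and Plpp5 (0.917). The closest genes to Adamts9 were S1pr3 (0.836), Aldh1a3 (0.828) and Gm8818 (0.818). Adamts1, whose level varied least between groups, had weaker matches in Rprd1a (0.755), Mgat4a (0.751) and Ap2a2 (0.742).

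Among the substrates, versican (Vcan) rose on day 4, as Adamts5 and Adamts15 did. Its level was 106.1 to 133.1 CPM in the 4 CTRL libraries and 184.6 to 340.0 CPM in the 3 EXP libraries of that day, a log2 fold change of 1.21 ± 0.217 (adjusted p = 0.00106). On day 2 it was 93.0 ± 24.1 CPM in CTRL and 158.9 ± 17.6 CPM in EXP (log2 fold change 0.77 ± 0.235, adjusted p = 0.0329). The day 2 call was lost without CTRL replicate 1, CTRL replicate 2 or any of the 3 EXP libraries, with adjusted p between 0.0523 and 0.154. Of 8 listed hyalectans and link proteins 5 were tested, and on each day no other gene of the list was called. The median log2 fold change of the tested genes of this list was 0.11, 0.05 and -0.77 on days 1, 2 and 4, and 0.07 and -0.31 on days 1 and 2 without Acan, which was then at the detection floor. Over all genes the medians were 0.01, 0.03 and 0.06, with 13.6%, 7.85% and 13.6% called higher and 14.9%, 5.62% and 8.96% lower. Acan, the gene of aggrecan, did not exceed 27 counts in any library.

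The genes that activate, inhibit or clear these proteases moved in both directions. Of 9 listed genes, all tested, 3 rose and 3 fell on day 1, 2 rose and 2 fell on day 2, and 1 rose and 1 fell on day 4, with medians of -0.33, 0.34 and 0.18. The shares called higher among all genes tested were 13.6%, 7.85% and 13.6% on days 1, 2 and 4. Those called lower were 14.9%, 5.62% and 8.96%, and the medians of all genes were 0.01, 0.03 and 0.06. Furin, the main activating convertase, rose from 20.2 ± 3.25 to 45.8 ± 12.3 CPM on day 1 (log2 fold change 1.18 ± 0.220, adjusted p = 5.07e-04) and from 19.3 ± 2.73 to 46.8 ± 12.9 CPM on day 2 (1.28 ± 0.265, adjusted p = 0.00379). The related convertase gene Pcsk5 rose on day 2 by 3.12 ± 0.517 (adjusted p = 8.47e-04) and on day 4 by 2.86 ± 0.459 (adjusted p = 5.45e-04), from 49.9 ± 7.51 to 361.6 ± 309.8 CPM on day 4. Pcsk6, another convertase gene, was lower in EXP on day 1 (-1.53 ± 0.343, adjusted p = 0.00225) and day 2 (-2.37 ± 0.435, adjusted p = 0.00149). Timp3 fell on day 1 from 223.2 ± 25.5 to 57.7 ± 23.4 CPM (-1.95 ± 0.310, adjusted p = 1.41e-04), and its later values were 1.10 ± 0.378 (adjusted p = 0.0577) and 0.07 ± 0.349 (adjusted p = 0.909). Its EXP effect differed between days (adjusted p = 0.00172), as did that of Adamts12. Fbln1, whose product fibulin-1 binds ADAMTS1 and aids its cleavage of aggrecan, was lower in EXP on day 1 (-0.68 ± 0.157, adjusted p = 0.00303) and on day 4 (-1.28 ± 0.186, adjusted p = 2.57e-04). Its day 2 call (-0.84 ± 0.194, adjusted p = 0.00728) was lost without EXP replicate 1 (adjusted p = 0.0508). Lrp1, the clearance receptor, was not called on any day, at log2 fold changes of 0.34 ± 0.208, 0.34 ± 0.252 and 0.20 ± 0.234.

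**Figure D4:**
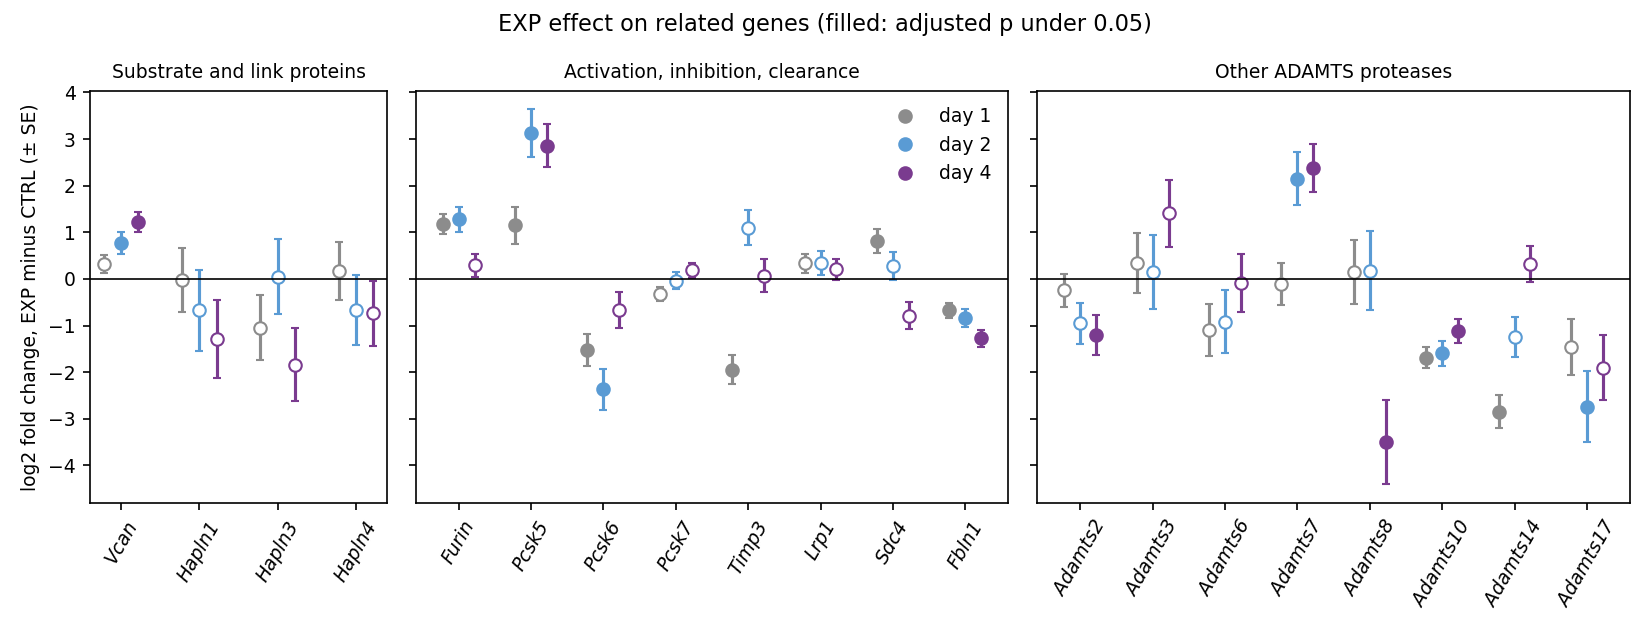
Log2 fold change of EXP over CTRL on days 1, 2 and 4, with bars of 1 SE, for versican and its link proteins, for genes that activate, inhibit or clear ADAMTS proteases, and for further ADAMTS proteases, filled where the adjusted p was under 0.05. Vcan is filled on days 2 and 4, Timp3 on day 1, and Fbln1 and Adamts10 are below 0 and filled on all 3 days; tested genes near the detection floor are left out.

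Other ADAMTS proteases, several of which process procollagen or microfibril proteins, moved in both directions. Of 13 listed genes 10 were tested. None rose and 4 fell on day 1, 1 rose and 2 fell on day 2, and 1 rose and 3 fell on day 4. Their median log2 fold change was -1.28, -0.38 and 0.12 on the 3 days, also with Adamts18 and Adamts19 at the bound that 3 counts set. Adamts10, whose product acts on fibrillin microfibrils, was lower on every day, at 76.3 ± 11.9 CPM in CTRL and 23.6 ± 3.59 CPM in EXP on day 1 (log2 fold change -1.69 ± 0.220, adjusted p = 2.16e-05), and at -1.60 ± 0.272 (adjusted p = 8.69e-04) and -1.11 ± 0.256 (adjusted p = 0.0053) later. Adamts14, a procollagen processing enzyme gene, fell on day 1 from 29.6 ± 16.3 to 4.12 ± 1.58 CPM (-2.84 ± 0.360, adjusted p = 1.90e-05). Its EXP effect differed between days (adjusted p = 0.00278), with 0.32 ± 0.387 on day 4. Adamts7, which can cut cartilage oligomeric matrix protein, was the riser of day 4, from 8.70 ± 2.37 to 45.3 ± 23.0 CPM (2.38 ± 0.517, adjusted p = 0.00411). Adamts8 was called lower on day 4, at 19.0 ± 15.5 CPM in CTRL and 1.70 ± 1.54 CPM in EXP (-3.50 ± 0.902, adjusted p = 0.0111). That call was lost by voom and without EXP replicate 1 (adjusted p = 0.0525 by edgeR). Adamts18, also called lower on day 1, had at most 1 count in each EXP library and 0.0384 to 8.21 CPM in CTRL, and was not called by voom. The 7 ADAMTS-like genes, which encode related proteins without a protease domain, counted none up and 4 down on day 1, 1 up and 2 down on day 2, and none up and 1 down on day 4, with medians of -0.80, -1.10 and -0.52. The shares and medians over all genes given above are the background for this list too.

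Genes that build the chondroitin and dermatan sulphate chains of these substrates also moved both ways. Of 25 listed genes 24 were tested, with 2 higher and 8 lower on day 1, 3 higher and 4 lower on day 2, and 2 higher and 7 lower on day 4, and medians of -0.37, -0.18 and -0.31. Beside these, 13.6%, 7.85% and 13.6% of all genes were called higher and 14.9%, 5.62% and 8.96% lower, with medians of 0.01, 0.03 and 0.06. Csgalnact1, which starts chondroitin chains, was higher in EXP on days 2 and 4. It was at 5.77 ± 2.79 CPM in CTRL and 87.0 ± 32.7 CPM in EXP on day 2 (log2 fold change 3.91 ± 0.486, adjusted p = 8.06e-05). On day 4 it was at 7.34 ± 1.33 and 95.7 ± 75.9 CPM (3.71 ± 0.427, adjusted p = 6.85e-05). Its CTRL level was higher on day 1, at 23.4 ± 3.80 CPM. In edgeR's joint tests over days it was called in CTRL (adjusted p = 0.0352) and not in EXP (adjusted p = 0.0779). Chst12, a chondroitin 4-O-sulphotransferase gene, was lower on every day, at -1.93 ± 0.192 (adjusted p = 2.79e-06), -1.57 ± 0.237 (adjusted p = 3.57e-04) and -0.97 ± 0.222 (adjusted p = 0.00514). Of the 59 calls made for genes of these 5 lists over the 3 days, 30 held in every fit that left out 1 library of the day.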

How the data were processed

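The authors deposited raw read counts per gene for 22 libraries. Per the submitters' processing notes, Trimmomatic and mm39 were used; the aligner, counter, annotation release and strand setting are not given in the sources used here. Symbols and exon lengths came from GENCODE M21, which named 52081 of 55414 identifiers. From the deposited counts, TMM factors were computed on all genes, filterByExpr (minimum count 10) kept 17554 genes, and edgeR 4.0.16 (R 4.3.3) fitted a mean per group with robust quasi-likelihood to all 22 libraries (16 residual degrees of freedom). P-values were Benjamini-Hochberg adjusted over all genes tested, and genes were called under 0.05. Standard errors were derived from the F statistics. CPM use TMM-scaled totals, marker sums plain totals, and log2 CPM a prior count of 2. Replicates differed beyond sampling noise (chi-square statistic over its degrees of freedom, 25.5 to 423). The members and gene lists were chosen with earlier results of these data known. Named genes were all members, the 3 most correlated genes of each, and called list genes, of which some are not reported here. Alternatives used DESeq2 1.42.0, limma 3.58.1 voom, other scalings, filters, blocks and left-out libraries. There were 0 columns outside the labels.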

Additional observations from a re-analysis of the deposited data

Results flagged for a closer look

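The EXP effect of Adamts12 differed between days in edgeR's joint test over the 3 days (adjusted p = 0.0018): its log2 values were -1.83, -0.27 and 0.60 on days 1, 2 and 4. The EXP effect of Adamts15 differed between days in the same test (adjusted p = 0.00177), at -0.37, 2.89 and 3.33. Both calls held in each of the 22 fits that left out 1 library. No single library stood far from the rest of its group among 18 combinations of a member and a group large enough to check. Chance alone would pick about 5% of these, or 0.9. The groups of 3 libraries, day 2 CTRL, day 2 EXP and day 4 EXP, were too small and were not checked.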

How the results depend on the processing

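Called effects of the members never changed sign. Left-out libraries called 1 to 3 members on day 1 (2 in the full fit), 1 to 2 on day 2 (2), 2 to 4 on day 4 (3) and 2 to 4 in the joint test between days (2). Other settings moved these counts to 1 (day 1, high side of the library split), 1 (day 2, no filter), 5 (day 4, library totals without TMM) and 0 (day 4, low side). Uncalled effects that changed sign were Adamts1 on day 2 (0.41 on library totals, -0.120 to 0.023 with left-out libraries) and day 4 (-0.053 to 0.266), Adamts4 on day 1 (-0.437 to 0.022), Adamts12 on day 2 (0.17 on library totals) and Adamts15 on day 1 (0.18 on the high side). Over all genes, day 1 gave 5003 calls and 2188 on the high side. Day 2 gave 2365, 4544 by voom, 4632 on library totals and 931 to 2229 with left-out libraries. Day 4 gave 3962, 1068 from that day's libraries alone, 1 on the low side and 1651 to 5014. The joint test between days gave 1517, 2606 by DESeq2, 2297 by voom and 892 to 2602. EXP over days gave 2478 and 1315 to 3318. CTRL over days gave 53, 519 by DESeq2, 564 by voom, 163 on library totals, 22 with the split as covariate and 5 to 83. Library totals without TMM moved the median of all genes from 0.01, 0.03 and 0.06 to 0.21, 0.49 and 0.36 on days 1, 2 and 4, and the share of calls that were higher from 47.8%, 58.3% and 60.3% to 66.2%, 90.5% and 80.8%. Deviations of log2 CPM from the group means, not the levels themselves, were correlated between arms for libraries sharing a day and a replicate number. These correlations were -0.0667 to 0.164, with 3 of 10 pairs above 0.1. No values for pairs with different numbers are given for reference, so they cannot show whether the numbers pair libraries. The main fit did not pair libraries by number. A replicate block within days called 392 genes in the joint test between days and the same number of members in each comparison, but not Vcan on day 2. It could not be fitted to changes over days, so a replicate block across days, chosen after seeing the data, was used there and called 1471 (EXP) and 21 (CTRL) genes. TMM after filtering was also added then and moved no count of members. The cause of these shifts was not tested. Depth limits Adamts9, whose lowest count was 51, more than the other members.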
